A study of Mus musculus with 4 samples.

Results

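The 31 genes described here are known hypoxia-induced genes that lie outside glycolysis and are not oxygen-sensing hydroxylases. They were picked by mouse symbol from a list of such genes, and all 31 have a row among the 28987 genes of the expression table. RNA sequencing was done on C57BL/6 mouse bone marrow cells enriched for c-Kit (CD117), the receptor by which blood stem and progenitor cells are selected. The Hif1a-null group (2 libraries) carried Hif-1<alpha>Flox/Flox in addition to the alleles shared by both groups, and the Hif1a-intact group (2 libraries) carried the shared alleles alone. These were MllPTD/WT, a partial tandem duplication in 1 copy of Mll (also named Kmt2a), then Runx1Flox/Flox, and the recombinase transgene Mx1-Cre. The title of every library, in both groups, names it Runx1-null. The Mx1 promoter responds to interferon and acts in many cell types besides blood progenitors. No library of mice without these lesions is part of the comparison. The sources used here give no age, sex or number of animals behind a library, so the p-values below measure only the spread between these libraries, which may be technical. The comparison asks which transcripts differ when Hif1a is floxed in this disease model.

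HIF-1 is a transcription factor of an oxygen-regulated alpha subunit, encoded by Hif1a, and a constant beta subunit, encoded by Arnt. In normal oxygen, prolyl hydroxylases mark the alpha subunit for destruction, and in low oxygen it accumulates and binds short hypoxia response elements near its targets. Outside glycolysis its targets adjust mitochondria, blood vessel growth, cell growth, lipid storage and the pH and redox state of the cell. The marrow is a low-oxygen tissue in which HIF-1 is known for its part in stem cell quiescence.

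Values are TPM, each transcript's share of its library scaled by length, so levels can be set side by side between genes, but they keep no record of read depth. Hif1a transcript was at 98.8 and 113 TPM in the Hif1a-null libraries and at 100 and 75.2 TPM in the Hif1a-intact libraries. It was not lower in the group labelled null (log2 fold change 0.28, SE 0.20, limma adjusted p = 0.479). A gene-level value includes exons outside the floxed part and does not check the deletion, so every direction below rests on the labels. Runx1 was floxed in both groups and is called null in every library title. Its transcript stood at 48.4 and 46.7 TPM in the Hif1a-null libraries and 73.6 and 76.6 TPM in the Hif1a-intact libraries (limma adjusted p = 0.0636). Cell type markers differed widely. Summed erythroid markers (12 genes) came to 6996 and 7442 TPM in the Hif1a-null libraries and 180 and 122 TPM in the Hif1a-intact libraries. Of the 12, 11 were called higher, where 5.25% of all tested genes were. For 3 of them the filter described below fixed the direction. Summed mast cell and basophil markers (7 genes, with Prss34 listed at 0 in every library) came to 144 and 144 TPM in the Hif1a-null libraries and 645 and 418 TPM in the Hif1a-intact libraries. Of the 4 tested, 1 fell, where 2.02% of all tested genes were called lower. It was the mast cell protease gene Cpa3, at 42.3 and 42.4 TPM in the Hif1a-null libraries, against 526 and 289 TPM in the Hif1a-intact libraries (limma adjusted p = 0.0158). The part of these markers in any result below was not tested, and fewer cells of a type cannot be told apart from less RNA per cell.

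Among the hypoxia-induced genes, Ndrg1, Ak4 and Ddit4 fell in the Hif1a-null libraries, Vldlr rose, and the other 21 tested genes did not pass. Ndrg1, a stress-induced gene known to restrain growth, fell to 8.27 ± 0.0882 TPM in the Hif1a-null libraries, against 26.1 ± 3.22 TPM in the Hif1a-intact libraries (SD, n = 2 each). Ak4, a mitochondrial adenylate kinase, fell to 4.14 ± 1.84 TPM, against 20.7 ± 0.672 TPM. Ddit4, also called REDD1, which encodes an inhibitor of the growth kinase complex mTORC1, fell to 4.34 ± 0.149 TPM, against 11.5 ± 2.21 TPM. Vldlr, a receptor that takes up lipoproteins, rose to 3.04 ± 0.439 TPM, against 0.877 ± 0.0159 TPM. The test was limma on log2(TPM + 1), two-sided, over the 11909 genes that reached 1 TPM in 2 or more libraries; p-values were adjusted over all of them by Benjamini-Hochberg, with a threshold of 0.05. A fold change on this scale understates the change of low genes.

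Of the 31 genes, 25 reached that level and were tested, and 6 were not. Of the 25, 3 were lower (12.0%), where 2.02% of all tested genes were called lower, and 1 was higher, where 5.25% were called higher and 7.27% in either direction. Stc2 and Vldlr reached it through 1 group alone, so the filter fixed their direction. A filter on the mean of the 4 libraries gave the same counts of 3 lower and 1 higher among 25. Stc2 and Vldlr pass that filter too only through their higher group, so the unchanged counts are no support for their direction. At an unadjusted p under 0.05, 7 of the 25 were lower, where 11.8% of all tested genes were, and 1 was higher, where 11.4% were. Both Hif1a-null libraries lay below both Hif1a-intact libraries for 9 of the 25 (36.0%), where 32.3% of all tested genes did so. Both lay above for 5, where 22.7% of all tested genes did so, and 55.0% of all tested genes had groups apart in either direction. These shares are near the background, and nothing about the 25 genes is read from the order of the libraries alone. The median log2 fold change of the 25 was -0.14, beside -0.06 over all tested genes, and without Hif1a-intact replicate 1 it was -0.04. Without Hif1a-null replicate 1, and likewise without replicate 2, limma called 0 of the hypoxia-induced genes. Among all genes it called 8 lower and 11 higher without replicate 1 and 0 without replicate 2. With 1 library left out of either group, the lone library was assumed to vary like the pair of the other group. Within the Hif1a-intact pair the log2 values of the 25 genes differed by a median of 0.24, beside 0.07 within the Hif1a-null pair. Over all tested genes these medians were 0.26 and 0.12. An exact permutation test of a single gene with 2 libraries against 2 cannot give a p below 0.333, so it was not used.

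**Figure D1:**
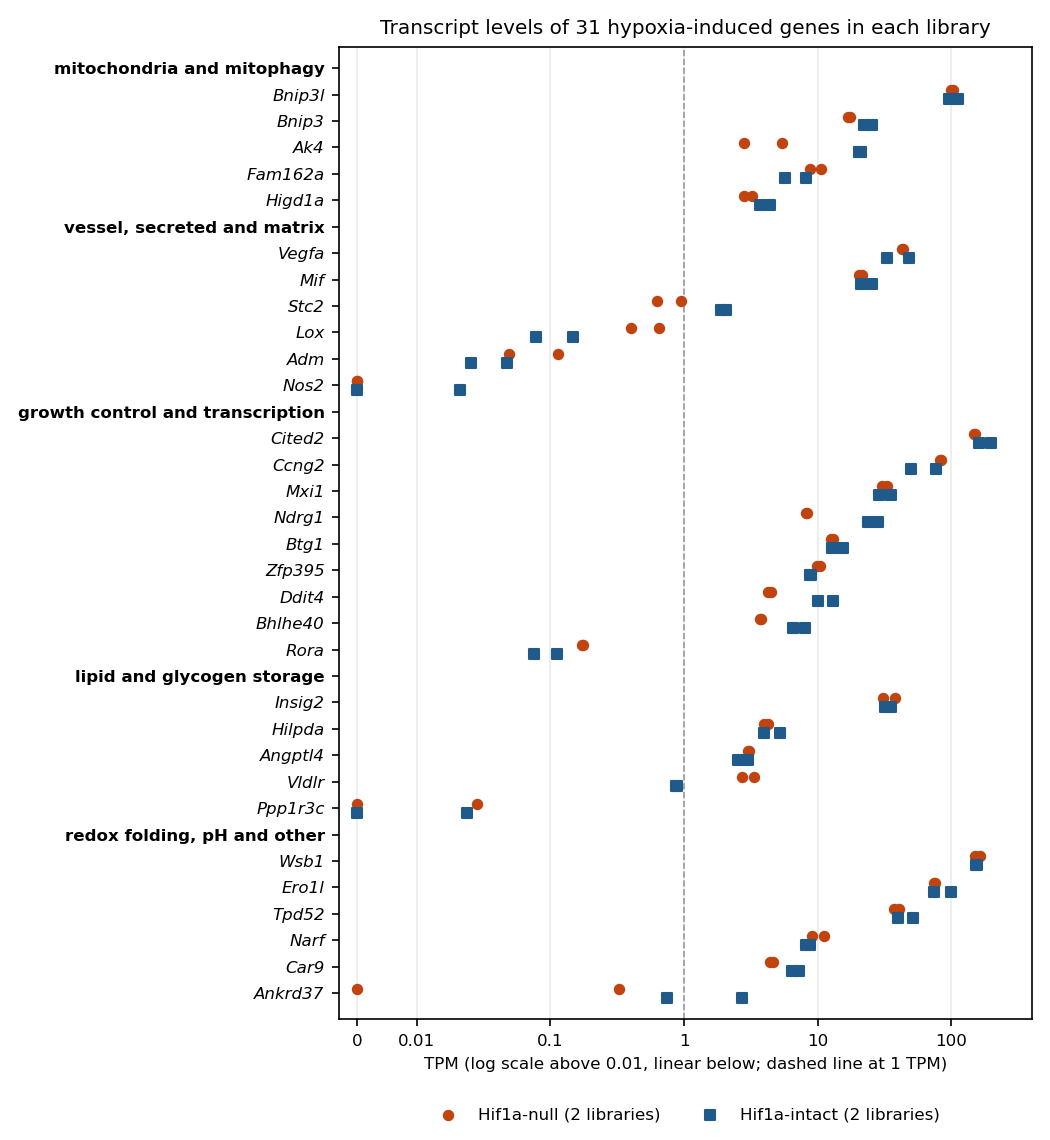
Each row is 1 of the 31 genes, grouped by function, with 2 Hif1a-null libraries (circles) above 2 Hif1a-intact libraries (squares) and TPM on an axis that is logarithmic above 0.01. The groups of Ndrg1, Ak4, Ddit4 and Vldlr lie apart. The most abundant genes, Cited2 and Wsb1, were at 148 TPM or more in every library. The groups of Wsb1 overlap, and those of Cited2 lie narrowly apart.

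**Figure D2:**
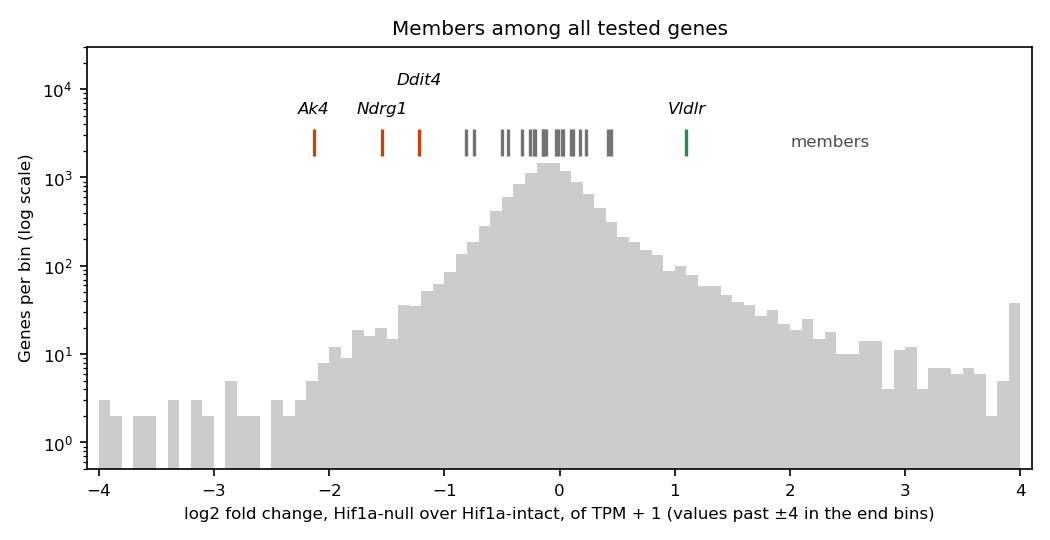
The grey histogram counts all 11909 tested genes by log2 fold change, on a logarithmic count axis with values past 4 in the end bins, and the ticks above it mark the 25 tested hypoxia-induced genes. Ak4 (-2.13), Ndrg1 (-1.54) and Ddit4 (-1.22) lie in the lower tail and Vldlr (1.10) in the upper one; the other ticks lie between -0.81 and 0.45.

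The promoters of these genes show which of them carry the letters that HIF-1 reads close to the start site. The core of a hypoxia response element is ACGTG or GCGTG, and both were searched on both strands in the 250 bases before the most upstream listed start site. An overlapping pair on the palindrome CACGTG counted as 1 site. RefSeq promoter sequences (GRCm38.p6) were matched for 23 of the 31 genes, Ero1l under the symbol Ero1a. Ndrg1, which fell, was not among those matched, so its promoter was not searched. At least 1 site was present in 17 of the 23 (73.9%), beside 57.5% of the 8872 tested genes with an entry, and more than 1 site in 13 (56.5%), beside 25.5%. Among the 19 that were both matched and tested, 13 held a site (68.4%) and 9 more than 1 (47.4%). Shown here, 5′ to 3′ on the gene's strand, are the matched genes that passed the test and, for contrast, the 3 most abundant matched genes that did not pass and had at least 150 bases before the GENCODE gene start. Each sequence ends at that start or at the listed RefSeq start, whichever comes first. Capitals mark the core letters on either strand.
Ak4 (chr4:101419039-101419276, plus strand, lower): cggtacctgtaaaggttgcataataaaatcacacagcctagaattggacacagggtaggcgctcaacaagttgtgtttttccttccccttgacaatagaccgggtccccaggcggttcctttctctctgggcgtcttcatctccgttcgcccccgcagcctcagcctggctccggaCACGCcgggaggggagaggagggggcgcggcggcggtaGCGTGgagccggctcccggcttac
Ddit4 (chr10:59951835-59952020, minus strand, lower): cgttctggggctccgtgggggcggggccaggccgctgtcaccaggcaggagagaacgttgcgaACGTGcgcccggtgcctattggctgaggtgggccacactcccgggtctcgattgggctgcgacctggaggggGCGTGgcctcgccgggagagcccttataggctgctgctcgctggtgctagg
Vldlr (chr19:27216234-27216483, plus strand, higher): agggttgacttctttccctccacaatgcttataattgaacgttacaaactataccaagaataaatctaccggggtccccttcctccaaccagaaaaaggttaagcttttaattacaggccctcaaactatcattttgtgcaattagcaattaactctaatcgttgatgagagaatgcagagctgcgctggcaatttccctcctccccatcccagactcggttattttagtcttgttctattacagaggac
Cited2 (chr10:17722978-17723217, plus strand, not past the threshold): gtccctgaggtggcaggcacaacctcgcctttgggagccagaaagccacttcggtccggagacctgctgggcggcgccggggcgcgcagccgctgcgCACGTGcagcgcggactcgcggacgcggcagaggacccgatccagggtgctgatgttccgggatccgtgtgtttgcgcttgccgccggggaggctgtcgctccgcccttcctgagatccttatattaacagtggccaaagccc
Wsb1 (chr11:79254696-79254945, minus strand, not past the threshold): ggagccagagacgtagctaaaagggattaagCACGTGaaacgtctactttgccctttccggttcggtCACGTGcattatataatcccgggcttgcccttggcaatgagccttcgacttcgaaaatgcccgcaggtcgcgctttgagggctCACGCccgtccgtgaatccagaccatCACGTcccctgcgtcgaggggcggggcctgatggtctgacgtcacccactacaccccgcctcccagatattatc
Vegfa (chr17:46032378-46032627, minus strand, not past the threshold): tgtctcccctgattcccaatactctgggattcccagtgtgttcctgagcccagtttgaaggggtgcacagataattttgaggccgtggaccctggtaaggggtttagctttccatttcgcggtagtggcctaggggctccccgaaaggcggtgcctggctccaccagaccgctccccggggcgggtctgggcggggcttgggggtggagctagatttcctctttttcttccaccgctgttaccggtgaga
Ak4 and Ddit4 held 2 sites each, the nearest 36 and 115 bases before the start. Distances run to the listed RefSeq start, which for Ak4 and Ddit4 lies past the end of the sequence shown. The windows of Higd1a, Ccng2 and Ankrd37 lie inside the gene as GENCODE annotates it. Wsb1 held 4, including 2 palindromes, and Cited2 held 1 palindrome 153 bases before the start. No site was found in these windows of Vldlr and Vegfa, which says nothing of sites elsewhere. Sites close to the start were therefore present in Ak4 and Ddit4, which fell, and in genes that did not pass. A match of letters is not evidence of binding.

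**Figure D3:**
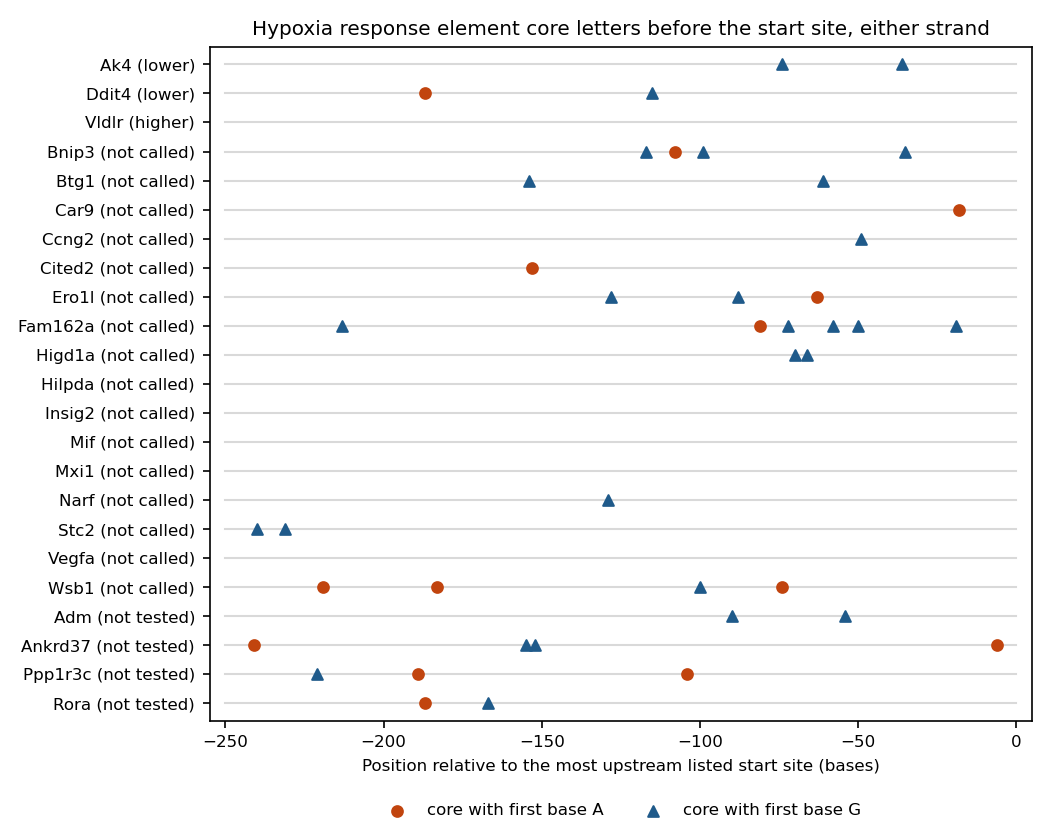
Rows are the 23 hypoxia-induced genes with a RefSeq promoter, with their test outcome in the Hif1a-null libraries in brackets, and points mark each core site by its distance in bases from the start site. Ak4 and Ddit4, which fell, and genes that did not pass carry sites, and 6 rows are empty. Ndrg1 had no matched promoter and has no row.

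Of the 5 mitochondrial genes, 1 fell, Ak4, and 4 did not pass. Ak4 measured 2.83 and 5.44 TPM in the Hif1a-null libraries, against 20.2 and 21.2 TPM in the Hif1a-intact libraries, a log2 fold change of -2.13 (SE 0.29, limma adjusted p = 0.0294). Its Hif1a-intact libraries were close together, its Hif1a-null libraries were 0.75 apart on the log2 scale, and the groups did not overlap. The call was lost without any 1 of the 4 libraries. The log2 fold change was -1.75 and -2.50 without Hif1a-null replicates 1 and 2. It was -2.16 and -2.09 without Hif1a-intact replicates 1 and 2. The call was also lost with no filter (limma adjusted p = 0.0804) and with a pseudocount of 0.1 (0.0511).

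Bnip3 and Bnip3l encode related receptors on the outer mitochondrial membrane that mark mitochondria for removal by autophagy. Bnip3 was at 16.7 and 17.5 TPM in the Hif1a-null libraries and 22.0 and 25.3 TPM in the Hif1a-intact libraries, with no overlap, but did not pass (log2 fold change -0.45, SE 0.14, limma adjusted p = 0.170). Bnip3l, known for clearing mitochondria from maturing red cells, stood at 103 and 100 TPM in the Hif1a-null libraries and 112 and 95.7 TPM in the Hif1a-intact libraries. These groups overlapped, with a log2 fold change of -0.03 and a 95% interval of -0.42 to 0.37, beside the difference in erythroid markers given above. Over the 4 libraries Bnip3l was the more abundant, with a mean of 103 TPM, and Bnip3 had a mean of 20.4 TPM.

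Higd1a, a hypoxia-inducible protein of the inner mitochondrial membrane, measured 3.23 and 2.80 TPM in the Hif1a-null libraries and 4.42 and 3.71 TPM in the Hif1a-intact libraries (limma adjusted p = 0.287). Its groups did not overlap. Those of Fam162a, a mitochondrial protein linked to hypoxic cell death, lay apart in the other direction, at 10.6 and 8.76 TPM in the Hif1a-null libraries and 8.14 and 5.64 TPM in the Hif1a-intact libraries (limma adjusted p = 0.318). Neither passed. Higd1a held 33.0% of the joint TPM of itself and a near-identical pseudogene, and exons of Fam162a overlap 168 bases of Wdr5b on the other strand, so both levels are uncertain. Of the 14 genes of the autophagy and mitophagy machinery, 12 were tested and 1 rose, the autophagy receptor Optn, at 10.6 and 9.79 TPM in the Hif1a-null libraries against 2.91 and 4.43 TPM in the Hif1a-intact libraries (limma adjusted p = 0.0435). The other 11 did not pass, and 5.25% of all tested genes were called higher.

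Among the 9 genes of growth control and transcription, 2 fell, 6 did not pass and 1 was not tested. Ndrg1 was at 8.21 and 8.33 TPM in the Hif1a-null libraries, against 28.4 and 23.8 TPM in the Hif1a-intact libraries, a log2 fold change of -1.54 (SE 0.15, limma adjusted p = 0.0147). The Hif1a-null libraries agreed closely and lay below both others. Its call held in 14 of 16 alternative settings and was lost without Hif1a-null replicate 1 (adjusted p = 0.188) or replicate 2 (0.216), where the log2 fold change was -1.53 and -1.55. An antisense gene, Gm17035, overlaps 419 bases of Ndrg1 exons on the other strand and stood at 0.422 and 0.458 TPM in the Hif1a-null libraries, against 10.3 TPM and listed at 0 in the Hif1a-intact libraries. Summed with it, Ndrg1 had a log2 fold change of -1.69 (limma adjusted p = 0.0406).

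Ddit4 measured 4.24 and 4.45 TPM in the Hif1a-null libraries, against 9.97 and 13.1 TPM in the Hif1a-intact libraries, a log2 fold change of -1.22 (SE 0.18, limma adjusted p = 0.0342). Its call was lost without Hif1a-null replicate 1 or 2, where the log2 fold change was -1.19 and -1.25. It was also lost with quantile normalization (limma adjusted p = 0.0509), with a pseudocount of 5 (0.0524) and with no filter (0.0696). Bhlhe40, a repressor of the clock and of differentiation genes, was at 3.74 and 3.70 TPM in the Hif1a-null libraries and 6.57 and 8.09 TPM in the Hif1a-intact libraries. Its groups did not overlap, and it stood just outside the threshold (log2 fold change -0.81, SE 0.15, limma adjusted p = 0.0596). It passed in 2 of 15 alternatives, with protein-coding genes only (adjusted p = 0.0390) and without Hif1a-intact replicate 1 (adjusted p = 0.0425). Without that library the spread came from the Hif1a-null pair, whose log2 values for Bhlhe40 were 0.01 apart.

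None of the other 5 tested growth genes passed. Cited2, whose product competes with the HIF alpha subunits for the coactivators p300 and CBP, was the most abundant of all 31 genes. It was at 148 and 149 TPM in the Hif1a-null libraries and 160 and 197 TPM in the Hif1a-intact libraries (log2 fold change -0.26, 95% interval -0.69 to 0.17). Its groups did not overlap. Ccng2, an atypical cyclin known to slow the cell cycle, stood at 84.1 and 81.5 TPM in the Hif1a-null libraries and 76.9 and 49.5 TPM in the Hif1a-intact libraries. Hif1a-intact replicate 2 was the low one, and the difference did not pass (log2 fold change 0.42, limma adjusted p = 0.407). Zfp395, a zinc-finger protein, measured 9.85 and 10.4 TPM in the Hif1a-null libraries and 8.90 and 8.71 TPM in the Hif1a-intact libraries (limma adjusted p = 0.472).

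Mxi1, an antagonist of MYC, and Btg1, an antiproliferative factor, share sequence with other annotated genes and are uncertain. Mxi1 was at 30.1 and 32.8 TPM in the Hif1a-null libraries and 28.5 and 35.2 TPM in the Hif1a-intact libraries. The opposite-strand gene Gm10197, which overlaps 194 bases of its exons, stood at 901 and 844 TPM in the Hif1a-null libraries and 688 and 939 TPM in the Hif1a-intact libraries, so Mxi1 held 3.62% of their joint TPM. Btg1 measured 12.9 and 12.5 TPM in the Hif1a-null libraries and 15.5 and 12.8 TPM in the Hif1a-intact libraries. It held 25.5% of the joint TPM of itself and a pseudogene. Summed with that pseudogene, its log2 fold change was -0.69 in place of -0.14 and did not pass (limma adjusted p = 0.243). Rora, a nuclear receptor, stayed under 1 TPM in every library and was not tested, at 0.175 and 0.174 TPM in the Hif1a-null libraries and 0.112 and 0.0750 TPM in the Hif1a-intact libraries.

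**Figure D4:**
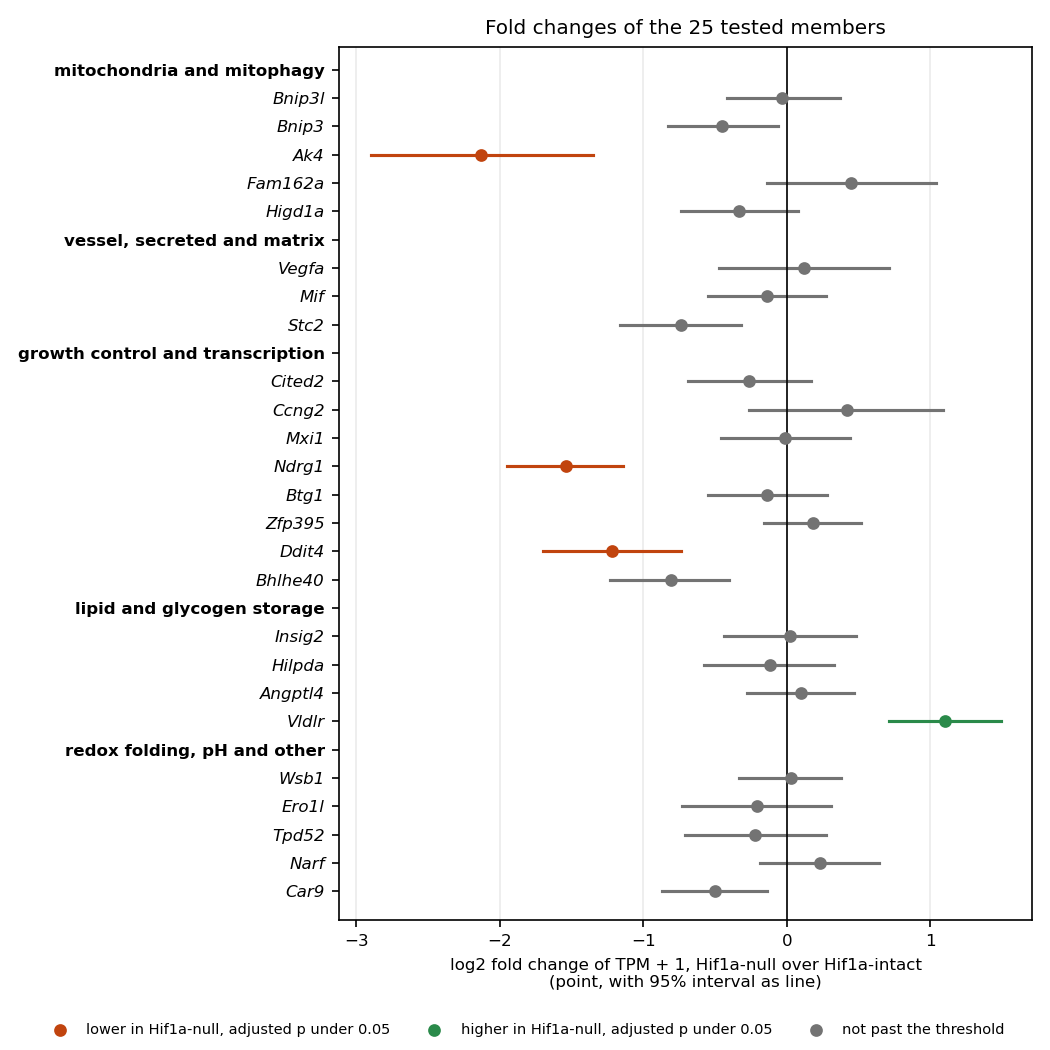
Points give the log2 fold change (Hif1a-null over Hif1a-intact, on TPM + 1) of each tested gene and lines its 95% interval from limma. The intervals of Ak4, Ndrg1, Ddit4 and Vldlr lie far from 0, and for 17 of the 21 genes that did not pass, the interval stays within 1 of 0. Among those 21, the intervals of Bnip3, Car9, Stc2 and Bhlhe40, which are not adjusted for the number of genes, lie wholly below 0. The filter fixed the direction of Stc2 and Vldlr.

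The vessel, secreted and matrix genes gave no call. Vegfa, the vascular growth factor, was at 43.0 and 43.4 TPM in the Hif1a-null libraries and 32.9 and 47.7 TPM in the Hif1a-intact libraries. Both Hif1a-null values fell between the Hif1a-intact ones (log2 fold change 0.12, 95% interval -0.47 to 0.71, limma adjusted p = 0.795). Mif, a cytokine, stood at 21.5 and 20.4 TPM in the Hif1a-null libraries and 25.3 and 21.2 TPM in the Hif1a-intact libraries, an overlap. It held 33.4% of the joint TPM of itself and 4 near-identical annotated copies, and summed with them its direction turned (0.22 in place of -0.14, limma adjusted p = 0.745). Stc2, a secreted glycoprotein, was low throughout, at 0.626 and 0.946 TPM in the Hif1a-null libraries and 2.07 and 1.88 TPM in the Hif1a-intact libraries. It just missed the threshold (log2 fold change -0.74, SE 0.15, limma adjusted p = 0.0758) and passed with quantile normalization (log2 fold change -1.13, adjusted p = 0.0317). Stc2 reached the tested level through the Hif1a-intact group alone, so the filter fixed its direction and these values are no support for it.

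Adm, Nos2 and Lox were close to absent and were not tested. Adm, which encodes the vasodilator adrenomedullin, measured 0.0492 and 0.115 TPM in the Hif1a-null libraries and 0.0253 and 0.0474 TPM in the Hif1a-intact libraries. Nos2, the inducible nitric oxide synthase, was listed at 0 in both Hif1a-null libraries, and at 0 and 0.0210 TPM in the Hif1a-intact libraries. Lox, which crosslinks collagen, was at 0.653 and 0.399 TPM in the Hif1a-null libraries and 0.0788 and 0.148 TPM in the Hif1a-intact libraries. Of the 10 stromal and endothelial markers, 2 rose and 2 fell, where 5.25% and 2.02% of all tested genes did so. Their summed level was 75.2 and 84.4 TPM in the Hif1a-null libraries and 63.1 and 55.1 TPM in the Hif1a-intact libraries. The part of these markers in the Lox values was not tested.

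Of the 8 receptors and other ligands of the VEGF family, 5 were tested, 1 fell and 1 rose. Among all tested genes 2.02% were called lower and 5.25% higher. Flt1, a VEGF receptor, stood at 0.509 and 0.623 TPM in the Hif1a-null libraries against 1.85 and 2.64 TPM in the Hif1a-intact libraries (limma adjusted p = 0.0485). Nrp2, a coreceptor, measured 3.69 and 4.37 TPM in the Hif1a-null libraries against 0.514 and 0.834 TPM in the Hif1a-intact libraries (limma adjusted p = 0.0179). Each reached the tested level through 1 group, so the filter fixed its direction.

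Of the 5 lipid and glycogen genes, Vldlr rose, 3 did not pass and 1 was not tested. Vldlr was at 3.35 and 2.73 TPM in the Hif1a-null libraries, against 0.866 and 0.888 TPM in the Hif1a-intact libraries, a log2 fold change of 1.10 (SE 0.14, limma adjusted p = 0.0278). The call was lost with quantile normalization (limma adjusted p = 0.0554) and with a pseudocount of 5 (0.0872). It was also lost without Hif1a-intact replicate 1 or 2, where the log2 fold change was 1.09 and 1.11. Without either Hif1a-null library Vldlr was no longer tested. Its groups lay apart at low levels, in a direction that the filter fixed. Insig2, which holds back the processing of sterol-regulating factors in the endoplasmic reticulum, stood at 30.7 and 38.1 TPM in the Hif1a-null libraries and 32.1 and 35.5 TPM in the Hif1a-intact libraries, an overlap with a 95% interval of -0.44 to 0.48.

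Hilpda, a lipid droplet protein that restrains lipolysis, measured 3.93 and 4.27 TPM in the Hif1a-null libraries and 5.20 and 3.96 TPM in the Hif1a-intact libraries (limma adjusted p = 0.727). Angptl4, an inhibitor of lipoprotein lipase, was at 3.07 and 2.99 TPM in the Hif1a-null libraries and 3.01 and 2.55 TPM in the Hif1a-intact libraries (limma adjusted p = 0.737). The groups of both genes overlapped. Ppp1r3c, which brings a phosphatase to glycogen, was listed at 0 and at 0.0284 TPM in the Hif1a-null libraries and at 0.0237 TPM and 0 in the Hif1a-intact libraries.

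The remaining 6 genes act in protein folding, pH and protein turnover, or in roles less well defined, and gave no call. Ero1l, an oxidase that forms disulfide bonds in the endoplasmic reticulum, stood at 73.4 and 74.7 TPM in the Hif1a-null libraries and 73.9 and 99.9 TPM in the Hif1a-intact libraries (log2 fold change -0.21, 95% interval -0.73 to 0.31). Wsb1, a substrate receptor of a ubiquitin ligase, measured 149 and 164 TPM in the Hif1a-null libraries and 153 and 155 TPM in the Hif1a-intact libraries. These overlapped, and the 95% interval of -0.33 to 0.38 was among the 5 that stayed within 0.5 of 0. The other 4 were those of Bnip3l, Mxi1, Angptl4 and Insig2. Tpd52, a protein of vesicle trafficking, was at 37.3 and 40.7 TPM in the Hif1a-null libraries and 51.8 and 40.1 TPM in the Hif1a-intact libraries, so its groups overlapped.

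Car9, the cell surface carbonic anhydrase IX, stood at 4.42 and 4.63 TPM in the Hif1a-null libraries and 7.26 and 6.41 TPM in the Hif1a-intact libraries. These groups did not overlap, but the gene did not pass (log2 fold change -0.50, SE 0.13, limma adjusted p = 0.128). An antisense gene, Gm12454, overlaps 214 bases of Car9 exons. Gm12454 was the more abundant, at 12.9 and 11.4 TPM in the Hif1a-null libraries and 13.9 and 16.7 TPM in the Hif1a-intact libraries. Its part in the Car9 values was not tested. Narf, a prelamin-binding protein, measured 11.1 and 9.12 TPM in the Hif1a-null libraries and 8.75 and 8.14 TPM in the Hif1a-intact libraries (limma adjusted p = 0.460). Ankrd37, an ankyrin repeat protein, was listed at 0 and at 0.329 TPM in the Hif1a-null libraries and at 0.742 and 2.73 TPM in the Hif1a-intact libraries. It was not tested.

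Levels within the group of genes were uneven. The 5 most abundant, Cited2, Wsb1, Bnip3l, Ero1l and Ccng2, held 68.0% and 67.5% of the summed TPM of the 31 genes in the Hif1a-null libraries and 64.1% and 64.5% in the Hif1a-intact libraries. The interval of none of these 5 excluded 0. The 3 genes that fell were of middle rank, with means over the 4 libraries of 17.2 TPM for Ndrg1, 12.4 TPM for Ak4 and 7.94 TPM for Ddit4, and Vldlr was low at 1.96 TPM. The neighbours Tpd52 and Vegfa, at 42.5 and 41.8 TPM, had overlapping ranges, as did Cited2 and Wsb1, at 164 and 155 TPM. The summed TPM of all 31 genes was 819 and 845 in the Hif1a-null libraries and 899 and 926 in the Hif1a-intact libraries.

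Some HIF pathway genes outside the group moved as well. Of 12 HIF subunits, hydroxylases and cofactors, 11 were tested, 2 fell and 1 rose, where 2.02% of all tested genes were called lower and 5.25% higher. The prolyl hydroxylase genes Egln3 and Egln1, themselves known HIF targets, fell, Egln3 to 12.9 and 13.3 TPM in the Hif1a-null libraries, against 55.6 and 52.7 TPM in the Hif1a-intact libraries (limma adjusted p = 0.00717). Hif3a, which encodes a further alpha subunit, rose to 5.55 and 6.17 TPM in the Hif1a-null libraries, against 1.27 and 0.545 TPM in the Hif1a-intact libraries (limma adjusted p = 0.0250). Its Hif1a-intact replicate 2 was below the tested level. Epas1, which encodes the alpha subunit of HIF-2, was at 1.43 and 1.21 TPM in the Hif1a-null libraries and 0.748 and 0.994 TPM in the Hif1a-intact libraries (limma adjusted p = 0.301). Epas1 reached the tested level through the Hif1a-null group alone, so the filter fixed its direction.

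**Figure D5:**
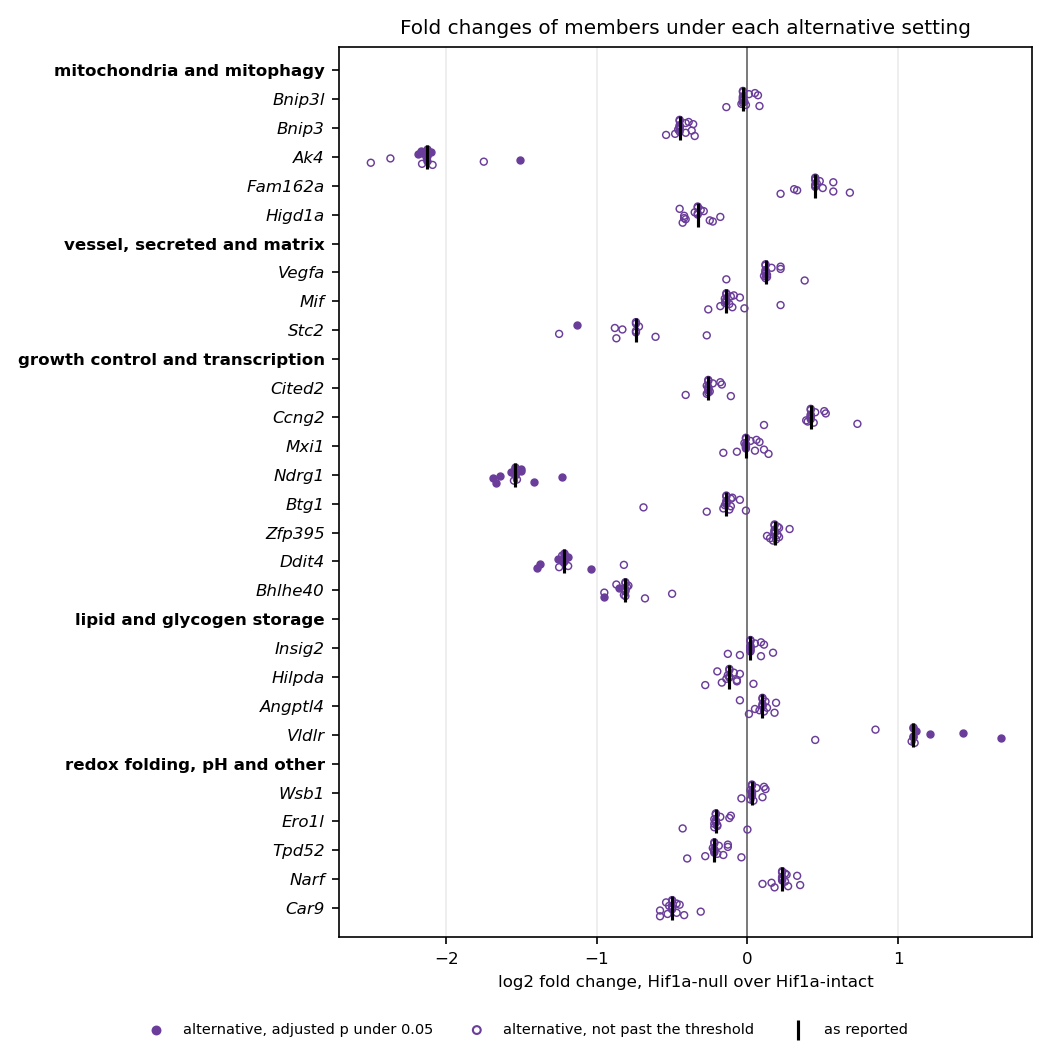
Each circle is the log2 fold change (Hif1a-null over Hif1a-intact) of a gene under 1 alternative setting, filled where the adjusted p was under 0.05, and the bar is the value as reported. Ndrg1 kept its call in 14 of 16 settings, Ak4 in 10 of 16, Ddit4 in 10 of 15 and Vldlr in 8 of 12. Ndrg1, Ak4 and Ddit4 stayed below 0 in each setting that tested them. Vldlr stayed above 0, but the filter fixed its direction, so this is no support for it.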

How the data were processed

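Marrow cells were enriched with CD117 beads, and libraries followed Illumina protocols, per the labels. The authors quantified expression with kallisto on the mm10 build, per the submitters' processing notes; the sources used here name no version, transcript set or strand setting. The values the authors deposited are in TPM, 1 for each Ensembl gene in each library, a unit read from column sums of 955562 to 963135. TPM keeps no counts, so depth is unknown, no counting interval is given, and an exact 0 can be a failed estimate. Reads of similar transcripts are divided by an estimate.

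Symbols and coordinates came from GENCODE vM21 (GRCm38, also called mm10), matched for 27475 of 28987 genes. Groups followed the genotype labels, which name no batch or pairing. Hif1a-null was compared with Hif1a-intact on log2(TPM + 1) by limma 3.58.1 (R 4.3.3; trend and robust off), a test checked on simulated data. Near-identical copies were taken from blastn 2.17.0 hits with 95% identity or more that covered 50% or more of the shorter sequence and 100 bases. Hits on either strand were kept. The overlapping opposite-strand genes Gm17035 of Ndrg1 and Gm10197 of Mxi1 were therefore summed in the same way. The 31 genes, their grouping, the other lists and the rule for naming genes (all 31, and list members past the threshold) were chosen with earlier results of these data known, so a pattern in them is no independent support. The 16 alternatives changed the variance model, scaling, filter, pseudocount, gene set, copies or libraries.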

Additional observations from a re-analysis of the deposited data

How the results depend on the processing

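Over 16 alternatives, 374 values for single genes were recomputed, of which 336 kept their direction and their side of the threshold, 17 lost a call, 3 gained one and 18 turned direction. The count of hypoxia-induced genes called lower stayed at 2 to 4 under every alternative other than no filter (1 called) and the left-out libraries (0 to 3). The count called higher, 1 as reported, was 0 with quantile normalization, with a filter of 5 TPM in 2 libraries, with a pseudocount of 5 and without any 1 of the 4 libraries. The median log2 fold change was -0.05 without the 100 most abundant genes, a scaling that moved the median of all genes by 0.10, -0.03 with no filter, and -0.16 to -0.04 with 1 library left out. Over all genes, 138 were called lower with no filter and 0 to 288 with 1 library left out, against 241; 332 were called higher with the filter of 5 TPM, 399 with a pseudocount of 5 and 0 to 731 with 1 library left out, against 625. The cause of these changes was not tested, except that no filter and a filter of 5 TPM alter the genes tested. The 18 turns came in 9 genes, none of which passed in any setting. Bnip3l was at 0.05, 0.01 and 0.07 with quantile normalization, median-ratio rescaling and without the 100 most abundant genes, and Mxi1 at 0.06, 0.02 and 0.08; Angptl4 was at -0.05 with quantile normalization. Summed with its copies, Mif was at 0.22. Mxi1 was at 0.11 when summed with Gm10197, an overlapping gene on the opposite strand and not a copy of it. Mxi1 held 3.62% of that joint TPM, so the value mostly reflects Gm10197. With 1 library left out the ranges were -0.14 to 0.08 for Bnip3l, -0.14 to 0.38 for Vegfa, -0.16 to 0.14 for Mxi1, -0.28 to 0.04 for Hilpda, -0.13 to 0.17 for Insig2, -0.43 to 0.00 for Ero1l and -0.04 to 0.10 for Wsb1. No paired analysis was possible because the labels give the groups no shared replicate numbers. Depth is unknown, so the levels of genes under 1 TPM carry no stated precision.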

Other observations

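Some hypoxia-induced genes are known to answer to other regulators too, and lists of their targets were counted in the same comparison. The counts stand beside 2.02% of all tested genes called lower and 5.25% called higher. Of 10 genes of the ATF4 stress response, 8 were tested. Asns, asparagine synthetase, rose to 25.2 ± 2.34 TPM in the Hif1a-null libraries, against 2.66 ± 1.90 TPM in the Hif1a-intact libraries (SD, n = 2 each, limma adjusted p = 0.0314). Phgdh, the first enzyme of serine synthesis, fell to 71.5 and 66.8 TPM in the Hif1a-null libraries, against 125 and 130 TPM in the Hif1a-intact libraries (limma adjusted p = 0.0357). The other 6 did not pass.

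Among 8 glucocorticoid receptor and target genes, the clock gene Per1 and the transcription factor Zbtb16 fell and the kinase Sgk1 rose. Zbtb16 stood at 0.589 and 0.419 TPM in the Hif1a-null libraries against 2.54 and 2.61 TPM in the Hif1a-intact libraries (limma adjusted p = 0.0183), a direction its filter fixed. Sgk1 measured 11.1 and 9.37 TPM in the Hif1a-null libraries against 3.63 and 4.24 TPM in the Hif1a-intact libraries (limma adjusted p = 0.0284). None of 11 FOXO factors and targets and none of 9 mTORC1 components and regulators passed, with median log2 fold changes of 0.04 and -0.21.

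Other marker lists differed in the same comparison, in which 2.02% of all tested genes were called lower and 5.25% higher. Of 8 tested megakaryocyte markers 5 rose, of 12 granulocyte markers 7 rose, of 10 B-lineage markers 9 rose and of 8 T and NK cell markers 6 rose, with 0 called lower in each list. Of 9 monocyte and macrophage markers 2 rose and 1 fell, and of 8 stem and progenitor markers 2 rose and 1 fell. The filter fixed the direction of 8 of the B-lineage markers that rose, of 4 of the T and NK cell markers (Cd3g, Tcf7, Ncr1 and Gzma), and of Gp1ba, Mrc1 and Slamf1 in the megakaryocyte, monocyte and stem cell lists.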
